A study of Mus musculus with 6 samples.

Results

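The genes described are 6 members of a pair of secreted protein families, the chitinase-like genes Chil1, Chil3, Chil4 and Chia1 and the resistin-like genes Retnla and Retnlg. They were taken by symbol from a table of 18180 genes, in which all 6 were found. The members were selected on measured values of the present comparison, the counts of both groups of libraries, so the differences between groups are given for these 6 genes as a description without a test. The study sequenced RNA of mouse tail skin in 6 libraries. In 3 control libraries the genotype was Mettl3fl/fl;K14creERT2-/-, and in 3 libraries labelled cKO it was Mettl3fl/fl;K14creERT2+/-, so that both groups carried the floxed Mettl3 alleles and differed in the K14CreERT2 transgene, a tamoxifen-activated Cre recombinase driven by a promoter of basal keratinocytes. The design text has mice given tamoxifen on 5 days, without naming the groups, and skin taken 4 weeks later, from spontaneously inflamed tail areas in the Cre carriers and from normal tails in the controls. Genotype and inflamed tissue therefore cannot be told apart. The sources used here do not give strain, age or sex, or say whether the control mice also received tamoxifen.

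Chitinase-like proteins share the fold of the chitinases, enzymes that cut the polysaccharide chitin of fungi, insects and worms, but most of them have lost the catalytic residues and act as secreted lectins. Mammals make no chitin, and these proteins are known mainly from inflamed tissue, where macrophages, neutrophils and epithelia release them. Resistin-like proteins are small cysteine-rich secreted proteins, related to the adipocyte hormone resistin. Chil3 (Ym1) and Retnla (RELMα) are standard markers of macrophages activated by the cytokines IL-4 and IL-13, and Retnla is also made by adipocytes and by keratinocytes and sebocytes of the skin, where it kills bacteria and depends on dietary vitamin A.

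Total counts per library ran from 35855880 to 37043849, and 3 counts, the limit that a count of 0 allows, equalled 0.0817 to 0.0837 CPM (counts of a gene per 1e+06 counts in the library, scaled by TMM). This limit covers counting error only. Replicate libraries of a group differed by more than counting noise, with a chi-square of 3.94 to 4.12 per degree of freedom over the 6 pairs. This excess showed no rise with level. Among genes within 2-fold of a member's mean count in a group, the median variance was 2.54 to 3.0 times the mean. The member means there ran from 2.67 to 3654.7 counts. Whether the replicates are separate animals is not stated in the labels, and p-values reflect the spread between libraries alone, which may be technical. Small p-values therefore cannot be read against a spread between animals. Mettl3, the gene carrying the floxed alleles, was counted 440, 389 and 337 times in control against 569, 512 and 540 times in the other group, which goes against the label. The table sums reads over the gene and the deleted exons were not analysed here, so this check of the label is limited. The group is therefore called the libraries labelled cKO throughout. Keratinocyte markers were abundant in both groups, with summed levels of 44004.6 to 44339.4 CPM in control and 73013.2 to 73787.9 CPM in the libraries labelled cKO. Most of that difference lay in Krt1, with means of 2170.1 against 20491.9 CPM, and 4 of the 10 markers were lower.

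Of the 6 genes, Chil1, Chil3, Chil4 and Retnlg were higher and Retnla was lower in every library labelled cKO than in any control library, and Chia1 was near its detection limit in both groups. The 5 genes other than Chia1 passed the low-count filter of edgeR, Chil3, Chil4 and Retnlg only through the libraries labelled cKO. All 5 stood among the genes with an adjusted p under 0.05 in its quasi-likelihood test, 4 higher and 1 lower. That background is large: 61.4% of the 15061 genes tested were called in either direction, 30.8% higher and 30.6% lower, and 64.9% did not overlap between groups, 32.6% with the libraries labelled cKO above control and 32.3% below. Nothing is read from the members' calls, because the members were chosen with this contrast known.

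**Figure D1:**
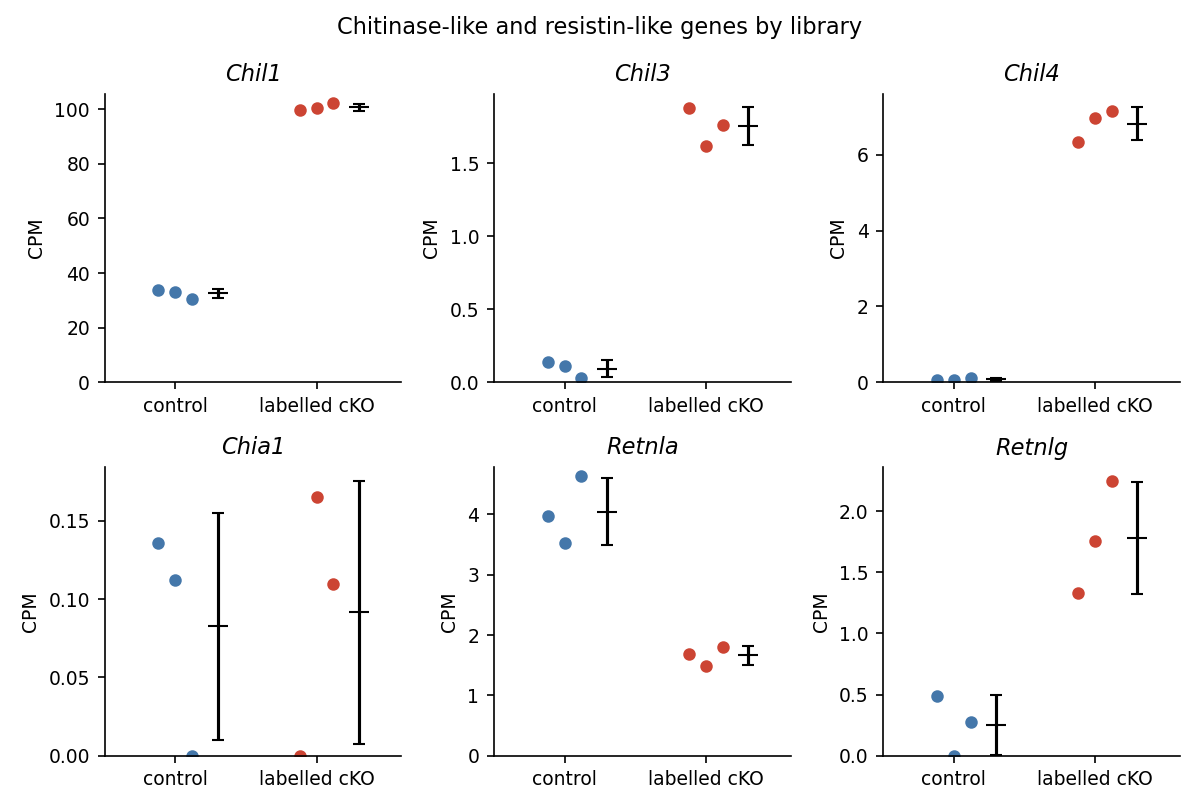
Level of each of the 6 genes in CPM on a linear axis from 0, with 1 point per library, 3 control libraries (blue) and 3 labelled cKO (red). Black marks give the mean and SD of each group (n = 3). The groups are separate in every panel except that of Chia1.

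Chil1, a chitin-binding lectin without chitinase activity made by macrophages, neutrophils and epithelial cells, was the most abundant of the 6. Its counts were 1246, 1186 and 1119 in control against 3601, 3643 and 3720 in the libraries labelled cKO. Every library labelled cKO lay above every control library, and the replicates stood close together, with levels of 32.5 ± 1.82 CPM in control and 100.7 ± 1.29 CPM in the libraries labelled cKO (SD, n = 3). The fitted log2 fold change was 1.63 (SE 0.048), a 3.1-fold higher level.

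Chil3 and Chil4, known as Ym1 and Ym2, are copies of each other. Chil3 is released by alternatively activated macrophages and stored in neutrophils, and can form crystals in inflamed airways. Its counts were 5, 4 and 1 in control against 68, 59 and 64 in the libraries labelled cKO. The control libraries held so few reads that only the libraries labelled cKO give a level, 1.76 ± 0.129 CPM (SD, n = 3). The fitted log2 fold change was 4.21 (SE 0.57), and the ratio of summed counts per library size was 19.5 with a 95% exact interval of 10.4 to 41.3, which covers counting error only.

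Chil4, which is known from stomach and inflamed lung, was counted 2, 2 and 4 times in control against 229, 253 and 261 times in the libraries labelled cKO. Its control counts were as sparse as those of Chil3, while its level in the libraries labelled cKO was 6.83 ± 0.432 CPM (SD, n = 3). The ratio of summed counts was 94.8 with an interval of 47.8 to 220.3 (95%, exact, counting error only). The fitted log2 fold change was 6.48 (SE 0.34). Per gene length, Chil4 exceeded Chil3 in each library labelled cKO, with FPKM (fragments per kilobase of gene and 1e+06 counted fragments) 3.41, 4.34 and 4.12 times as high. In control the same ratio was 0.404, 0.506 and 4.04 and rested on 1 to 5 counts a gene, so no order of the pair was detectable there.

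The genes of this pair lie next to each other and keep similar sequence before their start sites. The 250 bases before the annotated start of each, shown because the pair differ so little in them, were taken from RefSeq (GRCm38.p6) at chr3:106167565-106167814 for Chil3 and chr3:106219480-106219729 for Chil4, both on the minus strand. Capitals mark matches to TTCNNNGAA, a palindrome bound by STAT proteins, and to TATAAA, the TATA element.
Chil3: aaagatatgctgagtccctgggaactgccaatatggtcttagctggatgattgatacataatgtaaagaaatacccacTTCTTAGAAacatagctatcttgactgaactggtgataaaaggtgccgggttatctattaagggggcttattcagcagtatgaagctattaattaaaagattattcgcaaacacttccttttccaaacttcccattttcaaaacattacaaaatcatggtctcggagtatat
Chil4: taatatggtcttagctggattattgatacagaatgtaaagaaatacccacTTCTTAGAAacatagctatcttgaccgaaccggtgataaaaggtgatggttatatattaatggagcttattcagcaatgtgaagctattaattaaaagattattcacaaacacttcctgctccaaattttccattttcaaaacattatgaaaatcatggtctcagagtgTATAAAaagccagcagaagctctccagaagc
The windows align over 222 columns, of which 201 are identical (90.5%). The TTCTTAGAA palindrome occurs in both, at bases 172 to 164 before the start site in Chil3 and 200 to 192 in Chil4. The annotated starts are offset in the alignment, and the Chil3 window ends about where Chil4 has TATAAA. Neither positions nor the presence of TATAAA can therefore be compared within the pair. TTCNNNGAA occurs on either strand in 7.02% and TATAAA in 12.4% of 32851 RefSeq promoter windows of this length.

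The transcripts of the pair are also alike. In the longest GENCODE M21 transcripts 1454 of 1543 aligned positions are identical (94.2%), 18.5% of the 50-base stretches of each occur in the other, and 3.75% of the 100-base stretches do. The read length and the handling of reads that match both genes are not stated in the labels, so the split of counts between Chil3 and Chil4 is uncertain. No 50-base stretch of either was found in the transcripts of Chia1, Chil1, Chil5, Chil6 or Chit1.

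Chia1 encodes acidic mammalian chitinase, an active enzyme of stomach and airway epithelium. Counts of 5, 4 and 0 in control stood against 0, 6 and 4 in the libraries labelled cKO, too few to be tested. The groups overlapped fully, and the ratio of summed counts was 1.13 with a 95% exact interval of 0.414 to 3.15. That interval covers counting error only. The range in which a difference was not detectable at this depth is thus at least as wide.

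Retnla and Retnlg went opposite ways. Retnla was counted 146, 126 and 170 times in control against 61, 54 and 66 times in the libraries labelled cKO. All control libraries lay above all libraries labelled cKO, at 4.04 ± 0.558 against 1.66 ± 0.165 CPM (SD, n = 3). The fitted log2 fold change was -1.28 (SE 0.24).

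Retnlg (RELMγ), made by cells of the bone marrow and by neutrophils, was counted 18, 0 and 10 times in control against 48, 64 and 82 times in the libraries labelled cKO. Its control libraries spread widely, with control replicate 2 at 0, and none reached the lowest library labelled cKO. The fitted log2 fold change was 2.79 (SE 0.52), or 3.66 without control replicate 1. The variance of the control counts was 8.71 times their mean, and among the 1405 genes with a control mean within 2-fold of it, 9.47% had a ratio at least as high (median 3.0). Retnla made up 90.1%, 100% and 95% of the summed FPKM of the pair in control, against 58.8%, 48.7% and 47.5% in the libraries labelled cKO.

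The Retnla and Retnlg genes are also neighbours with related upstream sequence, shown because it is similar in genes with opposite group differences. The windows are chr16:48842359-48842608 for Retnla and chr16:48872358-48872607 for Retnlg, both on the plus strand, from RefSeq (GRCm38.p6). Capitals mark TTCNNNNGAA, the wider palindrome preferred by STAT6, the transcription factor of IL-4 and IL-13 signalling, and TATAAA.
Retnla: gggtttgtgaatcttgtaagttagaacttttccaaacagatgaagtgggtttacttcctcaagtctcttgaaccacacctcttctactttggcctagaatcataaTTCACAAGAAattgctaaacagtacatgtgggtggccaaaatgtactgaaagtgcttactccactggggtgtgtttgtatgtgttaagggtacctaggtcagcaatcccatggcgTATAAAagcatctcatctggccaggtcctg
Retnlg: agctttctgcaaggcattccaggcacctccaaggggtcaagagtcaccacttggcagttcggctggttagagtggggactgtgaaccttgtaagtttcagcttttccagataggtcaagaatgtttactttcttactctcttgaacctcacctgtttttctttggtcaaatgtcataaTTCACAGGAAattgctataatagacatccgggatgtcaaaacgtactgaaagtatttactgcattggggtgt
Over the best local alignment 135 of 173 columns are identical (78.0%). The annotated starts are offset here too, and the Retnlg window ends at bases that in Retnla lie before TATAAA. Positions and the presence of TATAAA are thus not comparable within this pair. Each window holds 1 match to TTCNNNNGAA, TTCACAAGAA at bases 145 to 136 before the start site in Retnla and TTCACAGGAA at bases 72 to 63 in Retnlg, and 5.85% of all windows of this length hold this motif on either strand. The windows of Chil1, Chil3, Chil4 and Chia1 held no match to it. TTGCNNAA, of the C/EBP type, matched in Retnla, Retnlg and Chil4 (9.56% of all windows), GGGANNNNCC, of the NF-kB type, in Chil1 and Chil3 (17.6%), and TGANTCA, of the AP-1 type, in none of the 6 (6.75%). No matches overlapped one another in the 6 windows. A match is a run of letters and says nothing of binding. The transcripts of Retnla and Retnlg are 83.2% identical over 601 aligned positions and share no 50-base stretch.

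Levels can be ordered across genes only per length. In control the order by deposited FPKM was Chil1 at 15.6 ± 0.857, Retnla at 7.41 ± 1.03, Retnlg at 0.415 ± 0.4, Chil3 at 0.0591 ± 0.0368, Chia1 at 0.0537 ± 0.0472 and Chil4 at 0.0476 ± 0.0203 (SD, n = 3). Chil1 and Retnla stood apart from the genes after them, and the ranges of Retnlg, Chil3, Chia1 and Chil4 each overlapped that of the next. In the libraries labelled cKO the order was Chil1 at 49.0 ± 0.639, Chil4 at 4.52 ± 0.288, Retnla at 3.1 ± 0.306, Retnlg at 2.95 ± 0.767, Chil3 at 1.15 ± 0.0838 and Chia1 at 0.0606 ± 0.0556 FPKM. Only Retnla and Retnlg overlapped there, and Chil4 stood second. Its place in control was not resolved, with 8 counts against 9 for Chia1 and 10 for Chil3 over the control libraries. Chil1 alone held 61.8% to 70.5% of the summed FPKM of the 6 genes in control and 79.2% to 81.8% in the libraries labelled cKO.

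**Figure D2:**
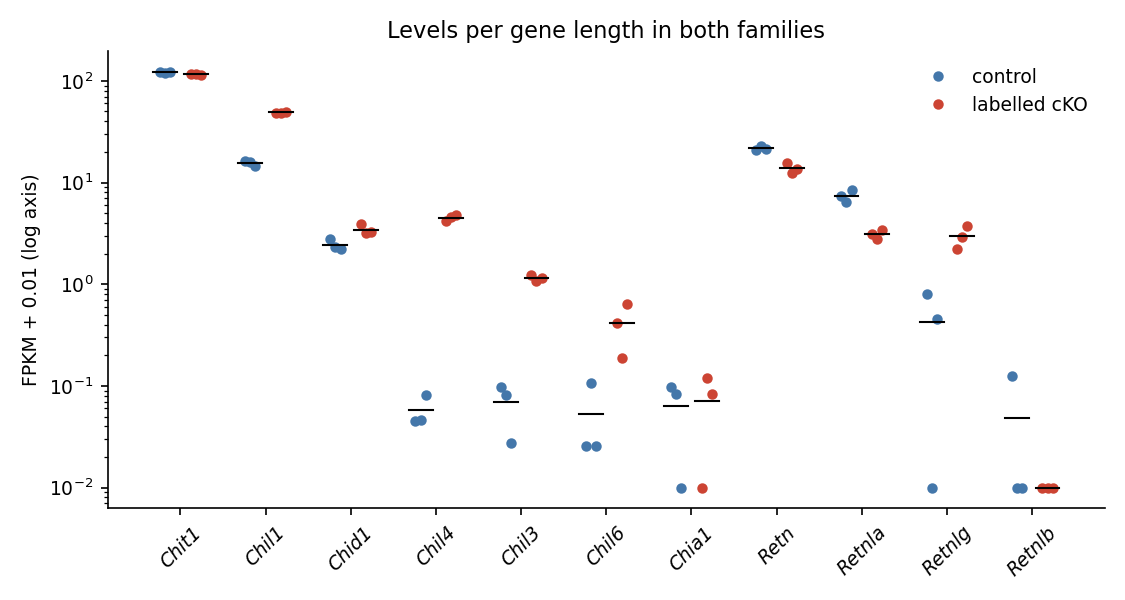
FPKM + 0.01 on a log axis for the 6 genes and 5 relatives, with 1 point per library and a line at the mean of each group (n = 3). Chit1 is highest in both groups, and Chil4 and Chil3 lie near the lower end in control.

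The remaining relatives were compared as tested genes. Chit1, chitotriosidase, is an active chitinase that neighbours Chil1 on chromosome 1. Per length it was far more abundant than Chil1. Its FPKM was 7.58 to 8.31 times as high in control and 2.29 to 2.42 times in the libraries labelled cKO. Its counts were 11801, 11185 and 11568 in control against 10834, 10806 and 10590 in the libraries labelled cKO, a small fall that passed the test (log2 fold change -0.09, SE 0.022, edgeR adjusted p = 0.000147). The gene neighbouring Chil4 on chromosome 3, Chil6, a chitinase-like gene, rose from 1, 6 and 1 counts to 25, 11 and 39. It passed the low-count filter only through the libraries labelled cKO and was not tested under a filter of 1 CPM in 3 libraries. The ratio of its summed counts was 9.57, with a 95% exact interval of 4.61 to 23.0 for counting error. In the order of the RefSeq annotation (GRCm38.p6) Chil5, Chia1, Chil3, Chil4 and Chil6 follow one another. Chil5, the gene on the far side of Chia1, had 1 count over the control libraries and 7 over the others, too few to test.

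Beyond the chitinase-like genes on chromosome 3, Ovgp1, an oviduct glycoprotein of the same fold, fell (log2 fold change -1.19, SE 0.23, edgeR adjusted p = 4.64e-06). Dennd2d, reported here because it lies on the other flank, did not pass (log2 fold change 0.09, edgeR adjusted p = 0.33). Chid1, a distant relative that binds carbohydrates, rose (log2 fold change 0.47, SE 0.10), and the lysosomal chitobiase gene Ctbs did not pass (log2 fold change -0.18, SE 0.15, adjusted p = 0.278). Among resistin genes, Retn, the adipocyte hormone resistin, fell from 992, 1065 and 1026 counts to 711, 573 and 638 (log2 fold change -0.68, SE 0.082, edgeR adjusted p = 3.46e-11), in the same direction as Retnla. Retnlb, a goblet cell product of the intestine, had 3 counts in control replicate 1 and 0 in the other 5 libraries. Of the 6 tested genes in this list of relatives, 2 rose, Chil6 among them, and 3 fell, with a median log2 fold change of -0.14 against 0.0 over all genes tested. Over all genes tested 30.8% were called higher and 30.6% lower.

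Among receptors and binding partners of these proteins, 4 of 8 tested genes were higher and 4 lower (median log2 fold change 0.01), where 30.8% and 30.6% of all genes were. With an assumed BCV (biological coefficient of variation) of 20% these counts were 2 and 2. For Chil1 these are Il13ra2, a receptor shared with IL-13, and its partner Tmem219, which fell by 0.66 (SE 0.18, edgeR adjusted p = 0.00138) and 0.29 (SE 0.096, adjusted p = 0.00633) on the log2 scale. The pattern recognition receptor Ager fell by 0.74 on the log2 scale (SE 0.26, edgeR adjusted p = 0.0114). Its groups overlapped, at 2.53, 3.46 and 3.38 CPM in control against 1.36, 1.57 and 2.69 CPM in the libraries labelled cKO. Lgals3, galectin-3, fell by 0.37 on the log2 scale (SE 0.014). The hyaluronan receptor Cd44 and the proteoglycan Sdc1, to which Chil1 binds, had log2 fold changes of 0.60 (SE 0.023) and 0.36 (SE 0.015), both called higher. Cap1, a receptor for resistin, and Tlr4, also bound by resistin, had 0.32 (SE 0.032) and 0.77 (SE 0.089), called higher as well. Ptgdr2, with 9 against 23 counts per group, was not tested.

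**Figure D3:**
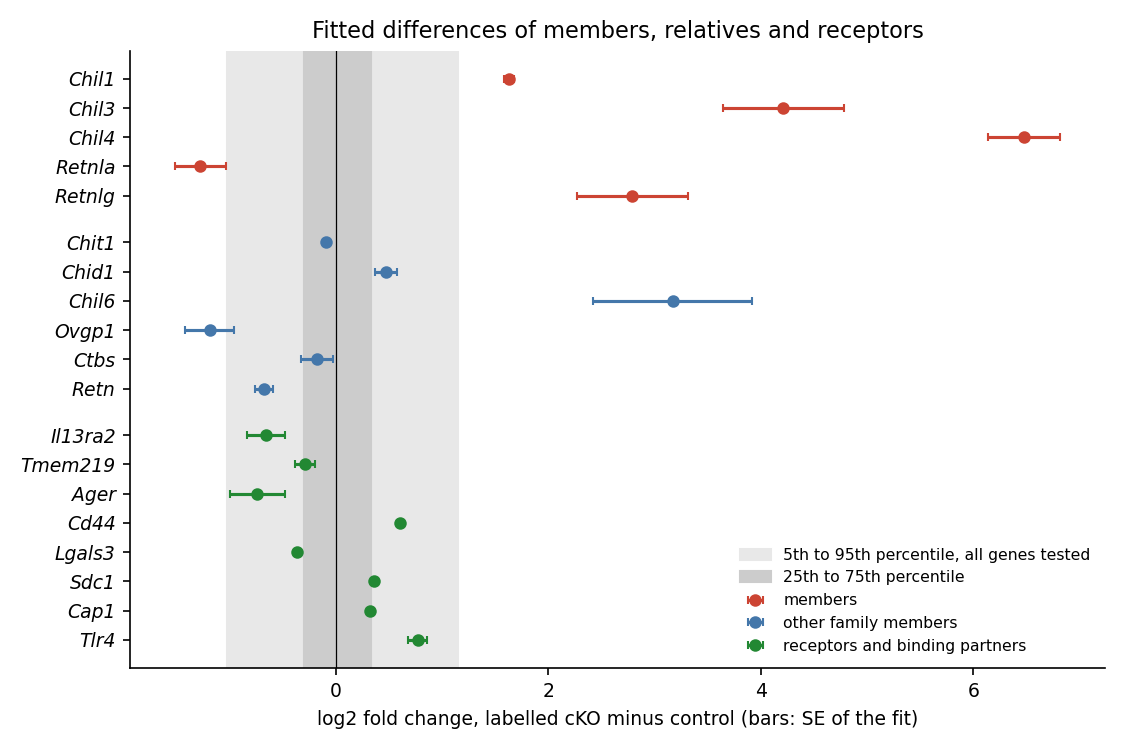
Fitted log2 fold change of the 5 tested members (red), 6 relatives (blue) and 8 receptors or binding partners (green), with bars of 1 SE. Grey bands hold the central 50% and 90% of all genes tested, -0.31 to 0.32 and -1.02 to 1.14. The members were selected on this contrast, so their place against the bands is a description only.

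Chil3, Retnla and Arg1 are induced together in macrophages by IL-4 and IL-13 through STAT6. The genes of that pathway and its epithelial triggers had 11 of 20 tested members higher and 5 lower (median log2 fold change 0.34), against 30.8% and 30.6% of all genes. With an assumed BCV of 20% the counts were 6 and 1. The alarmin Il33 had the largest rise (log2 fold change 2.46, SE 0.045, edgeR adjusted p = 4.52e-57), and the nuclear receptor Pparg the largest fall (log2 fold change -0.91, SE 0.092, edgeR adjusted p = 4.30e-14). The cytokines themselves were barely sampled, Il4 with 4 against 13 counts over the 3 libraries of each group and Il13 with 5 against 2, and were not tested. The receptor chain Il4ra rose from 46.1 ± 1.18 to 115 ± 2.9 CPM and Stat6 from 81.4 ± 5.58 to 105 ± 2.99 CPM (SD, n = 3). These 4 genes were picked after their values were seen.

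Among other genes of alternative macrophage activation, 4 of 15 tested members were higher and 5 lower (median log2 fold change -0.04), a share of calls near the 61.4% over all genes. Arg1, arginase 1, which keratinocytes also make, rose most (log2 fold change 3.59, SE 0.024, edgeR adjusted p = 4.48e-86), and the eosinophil chemokine Ccl24 fell most (log2 fold change -1.41, SE 0.21, edgeR adjusted p = 2.75e-08). Chil3 was higher, as was Arg1, and Retnla lower, as was Ccl24. Genes for sensing chitin and fungal walls rose in 5 of 5 tested cases (median log2 fold change 1.16), where 30.8% of all genes tested were called higher. The glucan receptor Clec7a rose most (log2 fold change 1.73, SE 0.14, edgeR adjusted p = 5.96e-18). Fibcd1 of the same list, with 2 against 1 counts per group, was not tested.

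**Figure D4:**
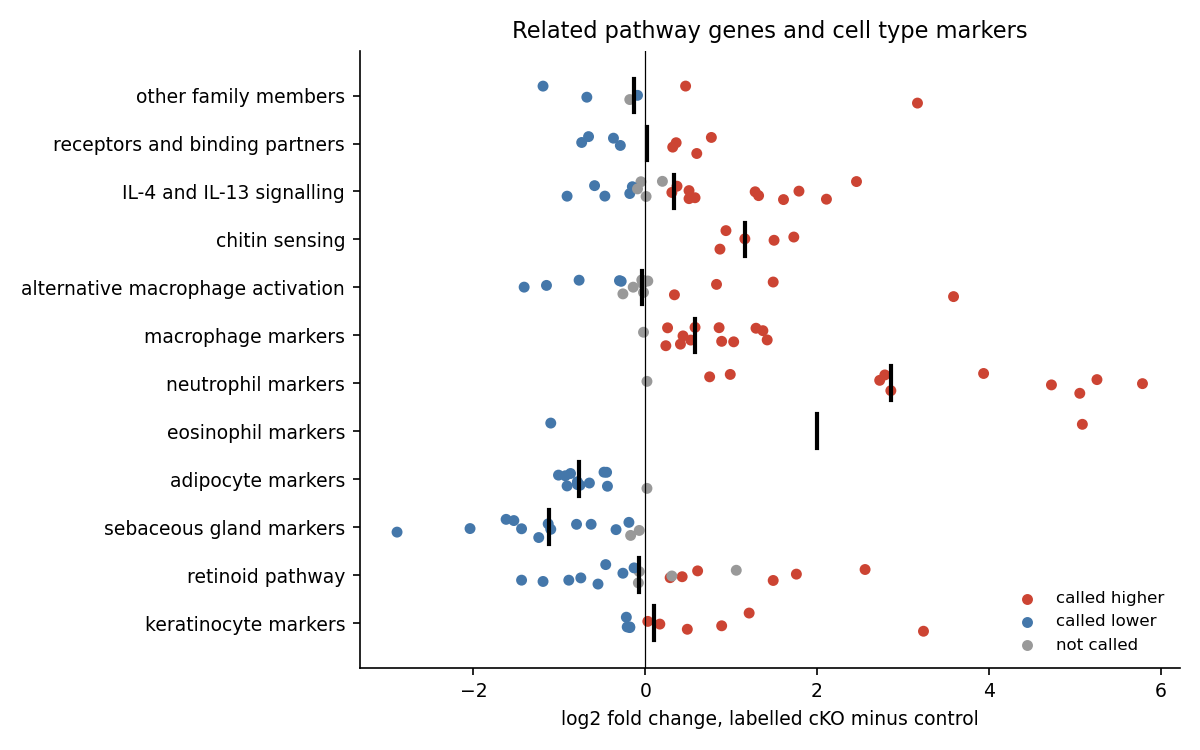
Log2 fold change of each tested gene in the 12 lists of relatives, pathway genes and cell type markers, with 1 point per gene coloured by its call and a black line at each list's median. Neutrophil markers have the highest median, 2.86 over the 11 of 18 that passed the low-count filter, 3 of them only through the libraries labelled cKO, and sebaceous gland markers the lowest, -1.12.

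Levels of marker genes are given beside the members. Because the tissue was sequenced in bulk, fewer cells of a type and less RNA per cell cannot be told apart. Of 18 neutrophil markers 11 were tested and 10 of these rose, where 30.8% of all genes tested were called higher. Among the 10, Mmp8, Trem1 and Stfa2l1 had 5, 9 and 8 counts over the control libraries and passed the low-count filter only through the libraries labelled cKO. The summed level of all 18 went from 128.2 to 130.6 CPM in control to 3550.2 to 3611.2 CPM in the libraries labelled cKO. Most of that sum came from S100a8 and S100a9, which keratinocytes also make. Trem1, a receptor of neutrophils and monocytes, had the largest rise, from those 9 counts to 515. The other 7 markers were too low to test. Over the control libraries Ly6g, Mpo and Elane had 6, 5 and 4 counts, and over the libraries labelled cKO 15, 4 and 1. Camp, Ngp, Ltf and Cd177 had 24, 12, 2 and 4 counts over control and 34, 20, 18 and 23 over the others. These 7, Mmp8 and Stfa2l1 were picked after their values were seen. Macrophage markers rose in 12 of 13 cases (median 0.58), against the same 30.8% of all genes. With an assumed BCV of 20% that count was 6. Aif1 was foremost (log2 fold change 1.42, SE 0.17), and the summed levels were 856.9 to 880.1 against 1241.3 to 1257.3 CPM. Retnla, also a product of macrophages, was lower in the same libraries. The part of these cells in the levels of the members was not tested.

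With Retnla, 11 of 12 adipocyte markers fell (median log2 fold change -0.77, sums of 1625.6 to 1638.7 against 1091.5 to 1093.3 CPM), where 30.6% of all genes tested were called lower. The fatty acid transporter Cd36 fell most (log2 fold change -1.01, SE 0.032, edgeR adjusted p = 1.22e-41), and Fabp4 did not pass (log2 fold change 0.02, edgeR adjusted p = 0.386). Sebaceous gland markers fell in 12 of 14 cases (median -1.12, sums of 5967.6 to 6010.4 against 2584.3 to 2595.5 CPM), against the same 30.6% of all genes. The desaturase Scd3 fell most (log2 fold change -2.89, SE 0.071). Eosinophil markers were sparse, with sums of 2.89 to 3.54 against 3.8 to 6.7 CPM, and of the 2 tested Ccr3 rose, from 9 to 317 counts over the 3 libraries of each group, and Ear2 fell (log2 fold change -1.10, SE 0.29). Ccr3 passed the low-count filter only through the libraries labelled cKO. The part of these cells in the lower Retnla level was not tested. Genes of vitamin A transport, retinoic acid synthesis and its receptors had 6 of 18 members higher and 8 lower (median -0.07), against 30.8% and 30.6% of all genes. With an assumed BCV of 20% the counts were 4 and 4. Aldh1a3, a retinoic acid synthesising enzyme, rose most (log2 fold change 2.56, SE 0.060, edgeR adjusted p = 5.95e-50), and the retinol carrier Rbp4 fell most (log2 fold change -1.19, SE 0.18, edgeR adjusted p = 3.48e-08). Keratinocyte markers had 6 of 10 higher and 4 lower (median 0.10), against the same shares, from Krt1 (log2 fold change 3.24, SE 0.0083) to Lor (log2 fold change -0.22, SE 0.0095). With an assumed BCV of 20% the counts were 3 and 0.

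Genes with a pattern most like each of the 5 were sought by the root-mean-square difference over the 6 libraries of log2(FPKM + 0.1), centred on the control mean, among 13549 genes. For Chil1 they were Tmem45b, the complement component C3 and Akr1b8, with differences of 0.0319 to 0.045. For Chil4 they were Spink12, S100a8 and the protease Tmprss11b, at 0.103 to 0.159, and for Chil3 they were Lgi2, Htr1b and Hmga2, at 0.105 to 0.171. For Retnla they included Fam180a and the clock gene Cry2, at 0.0709 and 0.0854. Retnlg had no close match, with Elf3, the peroxidase Lpo and the gelatinase Mmp9 at 0.808 to 0.817. With only 2 groups this likeness reflects mainly the size of the group difference on this scale, which the added 0.1 compresses for low genes.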

How the data were processed

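RNA-seq libraries of mouse tail skin, 3 control and 3 labelled cKO, were grouped by the labels. Per the submitters' processing notes, fastp, HISAT2 and HTSeq were run on mm39. Versions, gene annotation and strand setting are not stated there. The authors deposited whole-number counts per gene, without normalization, and FPKM values, which equalled counts per length and column total for all 18180 genes within a relative tolerance of 1e-06.

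Tests on counts used edgeR 4.0.16 in R 4.3.3 (filterByExpr with minimum count 10 and minimum total 15, TMM, robust quasi-likelihood, group as the only term, two-sided, Benjamini-Hochberg over 15061 genes, threshold 0.05). SE is the log2 fold change over the square root of F. CPM use TMM-scaled library sizes. The steps were tested on simulated counts. Alternatives used DESeq2 1.42.0, limma 3.58.1 on log2(FPKM + 1), RLE factors, other filters, a replicate block, a biological coefficient of variation (BCV) assumed to be 20%, and leaving out each library.

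The 6 members and 12 lists (154 of 156 entries found; Chia2 and Epx were not matched) were chosen with earlier results of these data known. The text names all relatives and receptors, each list's largest called rise and fall reaching a mean of 1 CPM in either group, and the 3 genes nearest in pattern to each tested member, of which 1 is not reported here. Promoters for all 6 members came from RefSeq (GRCm38.p6), transcripts from GENCODE M21. They were aligned locally with Biopython 1.88.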

Additional observations from a re-analysis of the deposited data

How the results depend on the processing

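The direction of the 5 tested members was the same under all 13 alternatives run. Leaving out each library in turn gave log2 fold changes of 1.59 to 1.67 for Chil1, 3.79 to 4.60 for Chil3, 6.31 to 6.87 for Chil4, -1.37 to -1.17 for Retnla and 2.21 to 3.66 for Retnlg. On log2(FPKM + 1), which compresses low genes, Chil3 was at 1.02, Chil4 at 2.40, Retnlg at 1.51 and Retnla at -1.03. With an assumed BCV of 20% the calls over all genes went from 9244 to 3361, relatives from 5 to 3, receptors from 8 to 4, IL-4 and IL-13 signalling from 16 to 7, macrophage markers from 12 to 6, retinoid genes from 14 to 8 and keratinocyte markers from 10 to 3. DESeq2 called 4 eosinophil markers in place of 2, having tested 7. Other counts of calls stayed within 1.5 times, and leaving out libraries gave 8694 to 8847 calls over all genes. With the replicate number as a block 9212 genes were called. Deviations of same-numbered libraries correlated at -0.0577 to -0.0154, and 0 of 6 libraries correlated best with their own number. No pairing by number was detected, and 3 libraries per group are too few to exclude one. The order of members by level was the same per scaled CPM and length. Low counts limit Chia1 and the control levels of Chil3, Chil4 and Retnlg.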
